A study of Mus musculus with 9 samples.

Results

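The genes of the MAP kinase cascade were examined in RNA from mouse lung endothelial cells, the cells that line blood vessels. Members were all genes of the table whose symbol starts with Mapk, Map2k, Map3k or Map4k. This rule found 39 of 9277 genes. It used names and no measured value, but was chosen with earlier results of these data known. GENCODE lists 54 protein-coding mouse genes with these prefixes, and the other 15, among them Mapk10, Mapk13 and Map4k1, were not analysed here under those symbols. The kinase of Map3k20 is listed under its older symbol Zak and is described beside the MAP3K tier.

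The libraries came from mice with wild-type Tie1 (Tie1-WT, n = 4 libraries) and from mice carrying Tie1-CR, a form of the receptor that resists proteolytic cleavage (n = 5 libraries). All 9 library names carry PBS, so both groups share that treatment. The sources used here do not give strain, age, sex, zygosity or the number of mice behind a library. The p-values below therefore reflect only how much these libraries vary, which may be technical. Tie1 is an orphan receptor of endothelial cells that works beside the angiopoietin receptor Tek. The comparison asks which transcripts differ when Tie1 cannot be shed.

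A MAP kinase cascade is a relay of protein kinases. Kinases of the MAP4K tier and small GTPases start it, a MAP3K phosphorylates a MAP2K, and the MAP2K phosphorylates a MAP kinase on a threonine and a tyrosine of its activation loop. The ERK arm carries growth factor signals, the JNK and p38 arms carry stress and cytokine signals, and the ERK5 arm is known in endothelium for its response to blood flow. The kinases act through phosphorylation, which transcript levels do not report.

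Values are CPM, a gene's reads scaled to the counted reads of its library, which numbered 38208696 to 54408116 per library. Differences are on the log2(CPM + 1) scale, Tie1-CR minus Tie1-WT, with a 95% interval from limma, and a gene was called where its Benjamini-Hochberg adjusted p over all 9277 genes was below 0.05. Tie1 itself measured 2136 ± 42.9 CPM (SD, n = 4) in Tie1-WT and 2433 ± 143 CPM (SD, n = 5) in Tie1-CR, without overlap (two-sided exact permutation p = 0.0079, the lowest value that 4 against 5 libraries can give). In the fit over all genes Tie1 was not called (0.19 log2, limma adjusted p = 0.107). Summed over 9 of 9 endothelial markers, the level was 16100 to 17400 CPM in Tie1-WT and 17000 to 18400 CPM in Tie1-CR, with 1 of them called lower. In bulk RNA, fewer cells of a type and less RNA per cell cannot be told apart. The numbers in the library names follow genotype, and an effect of handling order cannot be told apart from one of genotype.

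Most of the cascade differed little between the genotypes. Of the 39 members, 1 rose, the p38 kinase gene Mapk11, and 1 fell, the MAP4K gene Map4k4. That is 5.13% of the members, where 4.05% of all genes were called. The background was 1.28% for higher and 2.77% for lower calls, or 119 and 257 genes, and TMM scaling gave 182 and 194. The median difference was -0.02 log2 over the members and -0.03 over all genes. Differences were smaller than 0.25 log2 for 36 members (92.3%), against 90.9% of all genes. The median spread between libraries of a genotype was also close, with an SD of 0.10 log2 for the members and 0.10 for all genes.

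At an unadjusted p below 0.05, 4 members were higher (10.3%, against 8.27% of all genes) and 8 were lower (20.5%, against 14.0%). The 4 higher ones were Mapk11, Mapk12, Mapk7 and Map3k11. The 8 lower ones were Map4k4, Map4k5, Map3k1, Map3k2, Map3k7, Map2k7, Mapk8 and Mapk9. The genotypes did not overlap for 3 members (7.69%), with Mapk7 higher and Map4k4 and Map4k5 lower, where 10.5% of all genes did not overlap, 3.74% higher and 6.74% lower. The plot of differences by tier shows Mapk11 in the last tier of the relay and Map4k4 in the first.

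**Figure D1:**
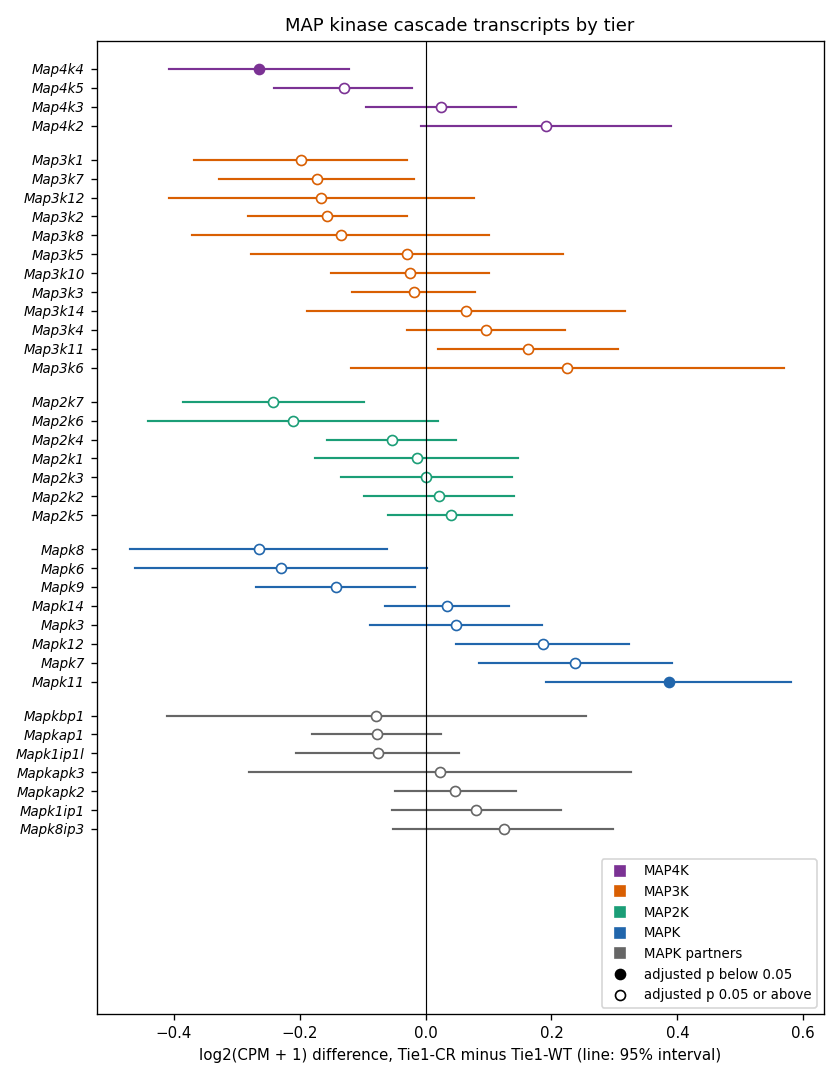
Difference in log2(CPM + 1) between Tie1-CR and Tie1-WT for 38 of the 39 members, grouped by tier, with 95% intervals from limma as lines. Filled points mark Mapk11 at 0.39 and Map4k4 at -0.26, which passed the threshold, and open points did not.

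Tie1-CR replicate 2 was the highest or lowest library of its genotype for 26 of the 39 members (66.7%), against 44.4% of all genes, and was the highest for 16. Tie1-CR replicate 4 was an extreme for 6 members (15.4%, against 36.5%). Of the markers of other lung cells, the summed level of the airway list did not overlap between genotypes, and those of the other measured lists did. Airway markers (4 of 6 measured, Scgb3a2 and Bpifa1 not analysed here) summed to 12.5 to 38.2 CPM in Tie1-WT and 48.0 to 81.4 CPM in Tie1-CR, and 2 of them rose. Type 2 pneumocyte markers (6 of 8) summed to 279 to 626 CPM and 436 to 789 CPM, with 1 rise. Type 1 pneumocyte markers (4 of 6) summed to 175 to 300 CPM and 162 to 244 CPM. Platelet markers (3 of 5) summed to 24.3 to 90.9 CPM and 62.4 to 89.7 CPM, and fibroblast and mural markers (3 of 7) to 14.3 to 49.7 CPM and 10.3 to 52.2 CPM. Of 8 leukocyte markers only Lyz2 was measured, at 19.7 to 68.0 CPM and 55.1 to 113 CPM, and of 2 mesothelial markers 0 were. No value of the table was 0. The part of these cells in the differences of the cascade genes was not tested.

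The MAP kinases themselves had differences from -0.27 to 0.39 log2 over 9 members, with a median of 0.03. Of the 9, 1 was called (11.1%, against 4.05% of all genes). Mapk11 encodes p38 beta, a stress-activated kinase closely related to p38 alpha. It lies on chromosome 15 from 89142486 to 89149628 on the minus strand of GRCm38. Its level was 39.9, 38.6, 42.3 and 50.9 CPM in Tie1-WT replicates 1 to 4, and 54.5, 63.8, 49.8, 53.9 and 59.4 CPM in Tie1-CR replicates 1 to 5. Tie1-CR libraries stood higher, except that Tie1-WT replicate 4 lay above Tie1-CR replicate 3. The level rose 1.31-fold, from a Tie1-WT mean of 42.9 ± 5.54 CPM (SD, n = 4) to a Tie1-CR mean of 56.3 ± 5.39 CPM (SD, n = 5), a difference of 0.39 log2 (interval 0.19 to 0.58, limma adjusted p = 0.0369). Without single libraries the difference stayed between 0.34 and 0.47 log2. The call ended without any of Tie1-WT replicates 1, 2 and 3 or Tie1-CR replicates 1, 2, 4 and 5 (limma adjusted p = 0.0523 to 0.127).

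Mapk12 encodes p38 gamma and is the direct neighbour of Mapk11. It lies on chromosome 15 from 89130584 to 89140703 on the same strand, 1782 bases from Mapk11. Its level was 72.2, 79.7, 75.4 and 82.0 CPM in the Tie1-WT libraries and 88.4, 97.0, 78.6, 89.8 and 87.3 CPM in the Tie1-CR libraries. Only Tie1-CR replicate 3 lay within the range of Tie1-WT. The difference was 0.19 log2 (interval 0.05 to 0.32) and did not pass (limma adjusted p = 0.111). Mapk12 was chosen for description after its value was seen, because of its place beside Mapk11.

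The starts of these neighbouring genes are shown because both stood in the same direction. Each window runs from 250 bases before to 50 bases after the annotated start, taken from RefSeq (GRCm38.p6), at chr15:89149557-89149856 for Mapk11 and chr15:89140654-89140953 for Mapk12, both on the minus strand and printed 5′ to 3′. Capitals mark matches, on either strand, to the GC box GGGCGG or the CACCC element CCACCC, where adjoining matches can share bases.
Mapk11: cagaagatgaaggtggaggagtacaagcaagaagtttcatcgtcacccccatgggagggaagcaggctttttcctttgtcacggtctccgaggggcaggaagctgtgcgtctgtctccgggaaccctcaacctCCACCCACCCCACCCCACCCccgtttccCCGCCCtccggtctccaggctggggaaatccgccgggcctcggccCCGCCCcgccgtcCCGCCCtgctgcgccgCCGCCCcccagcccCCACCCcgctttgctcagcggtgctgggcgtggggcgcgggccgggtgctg
Mapk12: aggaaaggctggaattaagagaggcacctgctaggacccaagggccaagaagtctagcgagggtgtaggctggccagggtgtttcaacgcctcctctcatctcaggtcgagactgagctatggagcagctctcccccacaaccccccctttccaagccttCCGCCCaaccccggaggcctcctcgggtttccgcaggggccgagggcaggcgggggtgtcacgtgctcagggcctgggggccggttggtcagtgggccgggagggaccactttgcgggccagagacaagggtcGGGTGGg
The Mapk11 window held 4 GC boxes and 5 CACCC elements, and the Mapk12 window held 1 of each. Of 32851 such windows in the table, 35.7% hold a GC box and 31.5% a CACCC element. Neither window held the AP-1 motif TGANTCA (7.81% of windows), the CRE motif TGACGTCA (1.79%) or the EGR motif GCGNGGGCG (5.55%). GC content was 69.7% in the Mapk11 window and 65.3% in the Mapk12 window, against a median of 52.7%. RefSeq windows of this kind matched 33 of the 39 members.

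Other genes around Mapk11 and Mapk12 stood on the same side of 0. From 89075124 to 89196496 on chromosome 15, 7 measured genes lie within 50 kb of either gene, those 2 included. The 5 others all had differences above 0, from 0.10 to 0.29 log2, where 41.5% of all genes were above 0. Hdac10, a deacetylase gene 1883 bases past Mapk12, rose by 0.29 log2, with 64.8 ± 4.88 CPM in Tie1-WT (SD, n = 4) and 79.6 ± 2.36 CPM in Tie1-CR (SD, n = 5) (limma adjusted p = 0.0158). The plexin gene Plxnb2, 5920 bases before Mapk11, measured 87.4 ± 7.87 and 104.6 ± 10.5 CPM (limma adjusted p = 0.0952). The remaining 3, Trabd, Tubgcp6 and Dennd6b, had differences of 0.17, 0.15 and 0.10 log2. The transcripts of these genes hold 54.5% to 57.3% GC. Among the 1619 genes with 54% to 58% GC, the median difference was 0.04 log2 and 63.5% were above 0. After removing trends with GC content and transcript length, these 5 neighbours stayed above 0, from 0.06 to 0.26 log2, where the median over all genes was 0.01. These neighbours were chosen by position, after the value of Mapk11 was seen.

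Mapk7 encodes ERK5, which the MAP2K encoded by Map2k5 activates. Mapk7 measured 78.3, 89.5, 85.8 and 83.4 CPM in Tie1-WT and 111.5, 90.3, 98.5, 91.7 and 107.0 CPM in Tie1-CR. Every Tie1-CR library lay above every Tie1-WT library, with less than 1 CPM between the nearest libraries of the genotypes. The difference was 0.24 log2 (interval 0.09 to 0.39, limma adjusted p = 0.0764), so it was not called. Its partner Map2k5 ranged from 44.0 to 44.7 CPM in Tie1-WT and from 43.0 to 47.8 CPM in Tie1-CR, a difference of 0.04 log2 (interval -0.06 to 0.14).

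**Figure D2:**
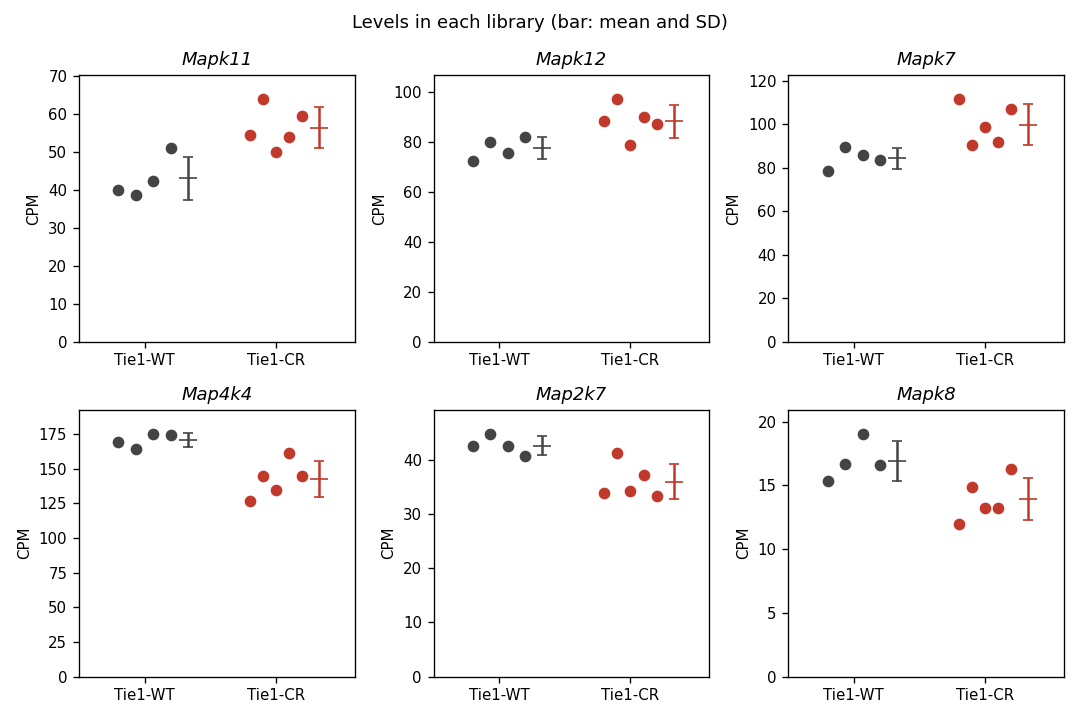
CPM of 6 members in each library, with the mean and SD of the genotype beside the points and each axis starting at 0. Mapk11, Mapk12 and Mapk7 stood higher in Tie1-CR, and Map4k4, Map2k7 and Mapk8 lower, with overlap between genotypes for Mapk11, Mapk12, Map2k7 and Mapk8.

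The 3 genes of the ERK arm described here were nearly level. Mapk3 encodes ERK1, and the MAP2K genes Map2k1 and Map2k2 encode MEK1 and MEK2, which activate it. Mapk3 measured 433, 447, 403 and 484 CPM in Tie1-WT and 478, 433, 438, 485 and 444 CPM in Tie1-CR. The libraries of both genotypes covered much the same range. The differences of the 3 genes ran from -0.01 to 0.05 log2, none was called, and none had an unadjusted p below 0.05. Their 95% intervals lay within -0.18 and 0.19 log2, so a change beyond that size is outside the intervals of each of them. Map2k1 spread in Tie1-CR from 64.6 CPM in replicate 2 to 85.6 CPM in replicate 1. The signs of such small differences depended on the scaling. Map2k1 (-0.01 log2) turned positive with TMM scaling, quantile normalization or a correction for GC content and length. Map2k2 (0.02 log2) turned negative after that correction alone.

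Most transcripts of a list known to be induced through ERK were lower in Tie1-CR. Of 13 measured genes of that list (15 listed), 9 fell (69.2%, against 2.77% of all genes called lower) and 0 rose. At an unadjusted p below 0.05, 12 were lower (92.3%, against 14.0% of all genes) and 0 higher, and the median was -0.80 log2. Etv5 was not lower, with Tie1-CR libraries from -0.033 to 0.135 log2 around its Tie1-WT mean. Whether ERK activity differed was not tested. This list was chosen with its fall in these libraries already known, so it gives no independent evidence of the direction. Phlda1, a pleckstrin homology domain gene, fell by 0.82 log2, with 26.5 ± 2.06 CPM in Tie1-WT (SD, n = 4) and 14.6 ± 0.934 CPM in Tie1-CR (SD, n = 5) (limma adjusted p = 0.00049). Egr1, Egr2 and Fosb, transcription factor genes of the early response, fell too, with limma adjusted p = 0.000657, 0.00105 and 0.0023. Only genes reaching at least 10.01 CPM in some library were measured here. Mean levels in Tie1-WT and Tie1-CR were 14.5 and 4.05 CPM for Egr2, and 11.6 and 3.93 CPM for Egr3, which also fell. A gene this low in Tie1-CR could enter only with a higher level in Tie1-WT. The falls of Egr2 and Egr3 are therefore partly set by this limit. The means of the other genes that fell lay above 10.01 CPM in both genotypes. Of the 65 values of the 13 measured genes in Tie1-CR libraries, 62 lay below the Tie1-WT mean of the same gene. Of the 15 values of the 3 kinase genes, 7 did. The counts given for the induced transcripts include Egr2 and Egr3. Genes of a list share the same libraries, so these values are not independent. The difference between the kinase genes and the induced transcripts was not tested.

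**Figure D3:**
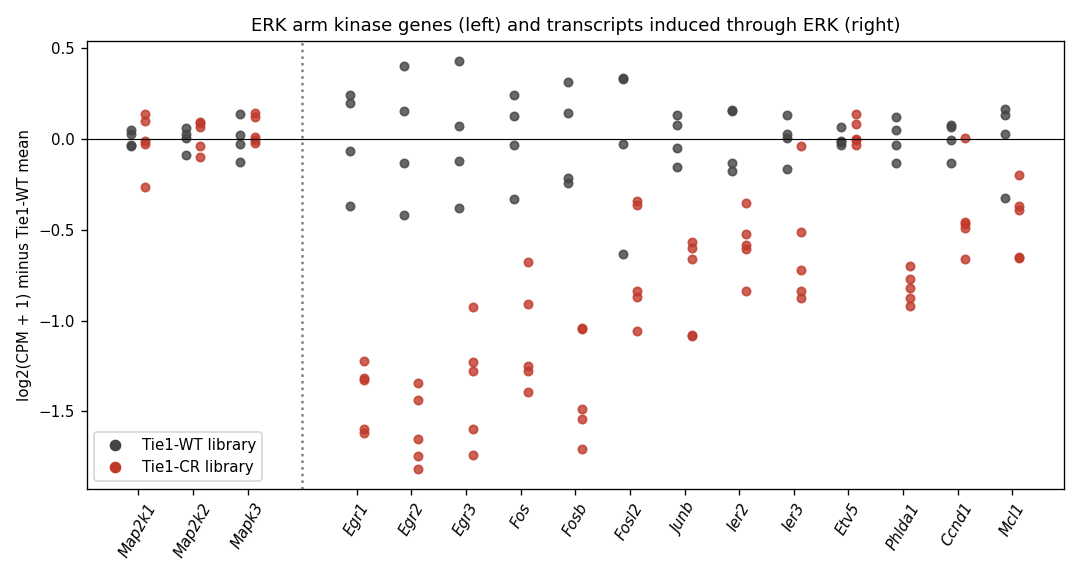
Level of 3 kinase genes of the ERK arm and of 13 transcripts induced through ERK in each library, as log2(CPM + 1) minus the Tie1-WT mean of the gene. The kinase genes in Tie1-CR stayed between -0.27 and 0.14, and the induced transcripts reached -1.81.

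All 4 members of the JNK arm had differences below 0, where 41.5% of all genes were above 0. Map2k4 turned to 0.03 log2 after the correction for GC content and length (median of the 4 -0.19 log2, or -0.12 after it). The arm was assigned after the values were seen. Map3k11 and the JNK scaffold gene Mapk8ip3, described with their tiers below, stood at 0.16 and 0.12 log2. Mapk8 and Mapk9 encode JNK1 and JNK2, and Map2k4 and Map2k7 encode their activators, of which Map2k4 also serves p38. None of the 4 passed. At an unadjusted p below 0.05, 3 of the 4 were lower, where 14.0% of all genes were. The median GC content of the 4 was 45.4%, against 49.8% over all annotated genes. Whether the arm differed as a set was not tested. Map2k7 measured 42.5, 44.8, 42.5 and 40.6 CPM in Tie1-WT and 33.8, 41.2, 34.3, 37.2 and 33.4 CPM in Tie1-CR. Only Tie1-CR replicate 2 reached into the Tie1-WT range. Its difference was -0.24 log2 (interval -0.39 to -0.10, limma adjusted p = 0.0636), and without Tie1-CR replicate 2 it passed (-0.29 log2, limma adjusted p = 0.0202).

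Mapk8 was one of the least abundant members, at 15.3, 16.7, 19.0 and 16.6 CPM in Tie1-WT and 12.0, 14.9, 13.3, 13.2 and 16.3 CPM in Tie1-CR. Tie1-CR replicate 5 lay among the Tie1-WT libraries. The difference was -0.27 log2 (interval -0.47 to -0.06, limma adjusted p = 0.123). Mapk9 ranged from 135.2 to 160.7 CPM in Tie1-WT and from 122.0 to 136.8 CPM in Tie1-CR (-0.14 log2, limma adjusted p = 0.172). Map2k4 differed by -0.05 log2 (interval -0.16 to 0.05).

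Among the p38 genes other than Mapk11 and Mapk12, no member was called. Mapk14, which encodes p38 alpha, measured 165.1 ± 6.24 CPM (SD, n = 4) and 169.0 ± 5.54 CPM (SD, n = 5), a difference of 0.03 log2 (interval -0.07 to 0.13). Its activators are encoded by Map2k3 and Map2k6. Map2k3 measured 110.1, 124.5, 119.9, 112.0 CPM in Tie1-WT and 123.5, 110.7, 115.6, 106.9 and 127.2 CPM in Tie1-CR, with no difference beyond the spread (0.00 log2, interval -0.14 to 0.14). Map2k6 measured 14.7, 14.1, 14.1 and 13.7 CPM in Tie1-WT and 9.83, 14.3, 10.5, 13.6 and 12.8 CPM in Tie1-CR. The Tie1-WT libraries lay close together and the Tie1-CR libraries spread below them, except for replicate 2 (-0.21 log2, interval -0.44 to 0.02, limma adjusted p = 0.264). The atypical kinase ERK3, encoded by Mapk6, ranged from 100.4 to 127.1 CPM in Tie1-WT and from 87.8 to 128.3 CPM in Tie1-CR (-0.23 log2, limma adjusted p = 0.229).

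The MAP4K tier held 4 members, with 1 called lower (25.0%, against 2.77% of all genes) and 0 higher, so 1 gene sets that share. Map4k4 encodes a STE20-family kinase that acts upstream of JNK and is known in endothelium for its part in integrin turnover and barrier control. It lies on chromosome 1 from 39900913 to 40026310 on the plus strand. Its level was 169.1, 164.4, 175.1 and 174.3 CPM in Tie1-WT and 126.7, 144.9, 134.3, 161.4 and 144.9 CPM in Tie1-CR. Every Tie1-CR library lay below every Tie1-WT library. The level fell, with a mean of 171 ± 4.96 CPM in Tie1-WT (SD, n = 4) and of 142 ± 13.1 CPM in Tie1-CR (SD, n = 5), 1.20-fold lower. This was a difference of -0.26 log2 (interval -0.41 to -0.12, limma adjusted p = 0.0463). The difference stayed between -0.31 and -0.22 log2 without single libraries. The call ended without any library but Tie1-CR replicate 4 (limma adjusted p = 0.0612 to 0.127) and with TMM scaling (-0.24 log2, 0.0582).

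Map4k5, a related kinase gene, also had genotypes without overlap. It measured 109.7, 100.4, 94.0 and 97.5 CPM in Tie1-WT and 89.7, 90.4, 93.9, 90.5 and 93.1 CPM in Tie1-CR. The lowest Tie1-WT library and the highest Tie1-CR library were almost level, and the difference of -0.13 log2 was not called (limma adjusted p = 0.151). Map4k2, the germinal centre kinase gene, measured 127.7, 135.0, 102.6 and 127.6 CPM in Tie1-WT and 136.3, 166.6, 133.3, 138.8 and 128.7 CPM in Tie1-CR, a difference of 0.19 log2 (limma adjusted p = 0.239). Map4k3, known from amino acid sensing, measured 233.4, 224.8, 217.3 and 224.9 CPM in Tie1-WT and 215.4, 226.2, 253.5, 218.9 and 232.0 CPM in Tie1-CR. The Tie1-CR libraries held both the highest and the lowest value (0.02 log2, interval -0.10 to 0.14).

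The MAP3K tier held 12 members, with differences from -0.20 to 0.22 log2. None was called. At an unadjusted p below 0.05, 1 was higher (8.33%, against 8.27% of all genes) and 3 were lower (25.0%, against 14.0%). Map3k11 encodes MLK3, a mixed-lineage kinase that feeds JNK and p38. It measured 554.7, 584.2, 520.6 and 546.9 CPM in Tie1-WT and 669.8, 554.3, 645.1, 583.2 and 639.3 CPM in Tie1-CR. Tie1-CR replicates 1, 3 and 5 lay above all Tie1-WT libraries, and replicates 2 and 4 lay among them (0.16 log2, interval 0.02 to 0.30, limma adjusted p = 0.169).

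Map3k6 encodes ASK2, a partner of the stress kinase ASK1. It measured 104.5, 108.3, 131.9 and 100.1 CPM in Tie1-WT and 167.9, 144.0, 114.3, 89.7 and 145.9 CPM in Tie1-CR. The Tie1-CR libraries held both the highest and the lowest value, and the difference of 0.22 log2 came with a wide interval (-0.12 to 0.57, limma adjusted p = 0.42). Map3k1, which encodes MEKK1, measured 33.9, 44.2, 37.2 and 33.8 CPM in Tie1-WT and 30.9, 34.1, 33.2, 30.6 and 32.2 CPM in Tie1-CR (-0.20 log2, limma adjusted p = 0.156). Map3k7 encodes TAK1, the kinase that toll-like and interleukin receptors use to reach NF-kappaB and JNK. It ranged from 50.4 to 61.3 CPM in Tie1-WT and from 43.6 to 52.5 CPM in Tie1-CR (-0.17 log2, limma adjusted p = 0.177). Map3k2 encodes MEKK2, which activates the ERK5 arm, and differed by -0.16 log2 (limma adjusted p = 0.138).

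Of the other MAP3K genes none had an unadjusted p below 0.05. Map3k3 encodes MEKK3, the endothelial kinase above Map2k5 and Mapk7 that is known from cerebral cavernous malformation signalling. It ranged from 370.7 to 398.4 CPM in Tie1-WT and from 368.0 to 391.6 CPM in Tie1-CR (-0.02 log2, interval -0.12 to 0.08). Map3k8 encodes TPL2, which links inflammatory receptors to MEK1, and measured 65.9 ± 6.88 CPM (SD, n = 4) and 60.3 ± 9.72 CPM (SD, n = 5) (limma adjusted p = 0.485). Map3k5, the ASK1 gene, Map3k14, the NIK gene of the noncanonical NF-kappaB pathway, and Map3k10, a relative of Map3k11, differed by -0.03, 0.06 and -0.02 log2. Map3k4 and Map3k12 differed by 0.10 and -0.17 log2. Zak, the older symbol of Map3k20, encodes a stress kinase that senses stalled ribosomes. It lies outside the prefix and measured 60.8, 53.0, 58.6 and 52.6 CPM in Tie1-WT and 41.2, 46.2, 49.6, 48.5 and 50.4 CPM in Tie1-CR (-0.25 log2, limma adjusted p = 0.0658).

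Genes named after MAP kinases, their targets and partners, differed little. Of 7 members, 0 were called and 0 had an unadjusted p below 0.05. Mapkapk2 encodes MK2, the p38-activated kinase that stabilises cytokine transcripts. It measured 140.0, 146.3, 140.7 and 147.9 CPM in Tie1-WT and 155.3, 140.7, 150.6, 150.0 and 146.4 CPM in Tie1-CR (0.05 log2, interval -0.05 to 0.14). Mapk8ip3, a JNK scaffold gene that also links cargo to motor proteins, measured 178.7, 175.8, 185.6 and 162.3 CPM in Tie1-WT and 171.4, 225.2, 178.1, 205.1 and 181.1 CPM in Tie1-CR (0.12 log2, limma adjusted p = 0.382). Mapk1ip1 measured 18.1, 16.4, 16.8 and 18.3 CPM in Tie1-WT and 20.1, 18.1, 17.9, 18.4 and 17.8 CPM in Tie1-CR (0.08 log2, limma adjusted p = 0.463). Mapkapk3, Mapk1ip1l, Mapkap1, a subunit gene of the mTORC2 complex, and Mapkbp1 differed by 0.02, -0.08, -0.08 and -0.08 log2.

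Levels can be set against each other only per length, and were taken here as mean CPM per kilobase of annotated exon over all 9 libraries. In the MAPK tier Mapk3 was highest at 199.1, followed by Mapk14 at 38.2, in 9 of 9 libraries. Mapk12, Mapk7, Mapk9, Mapk11 and Mapk6 lay between 16.3 and 21.9, and Mapk8 was lowest at 1.33. In the MAP3K tier Map3k11 at 134.0 and Map3k3 at 93.8 held the first and second place in 9 of 9 libraries, ahead of Map3k6 at 26.7. Map2k3 led the MAP2K tier at 35.2, and Mapkapk2 the partners at 48.2, each in 9 of 9 libraries. In the MAP4K tier Map4k3 at 22.9 and Map4k2 at 20.0 were close, and Map4k3 was first in 8 of 9. All exons hold 9911 bases for Map4k3 and 6654 for Map4k2, and the longest transcripts 4231 and 5086. This closeness therefore depends on the length used, and the places in every tier were taken over all exons alone.

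**Figure D4:**
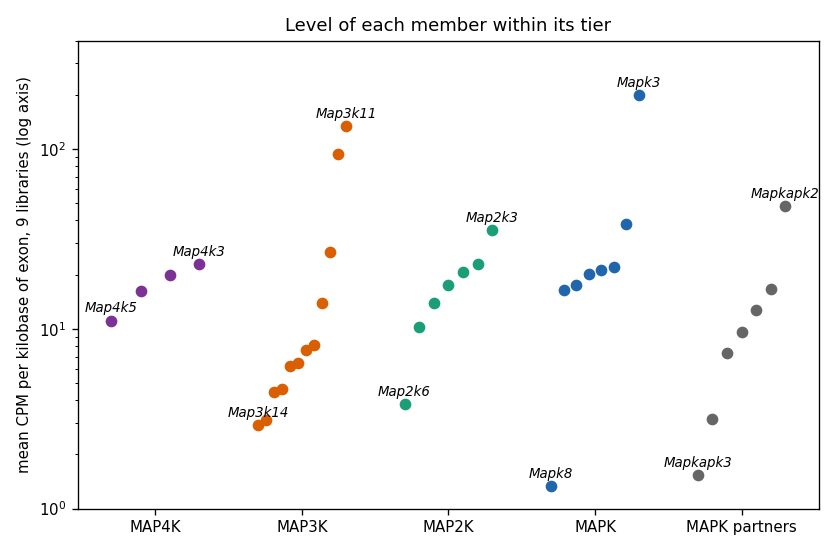
Mean CPM per kilobase of annotated exon over 9 libraries on a log axis, for 38 of the 39 members within their tiers, with the highest and lowest member named. Mapk3 at 199.1 and Map3k11 at 134.0 stand above the other members of their tiers.

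Between relatives, Mapk9 exceeded Mapk8 by 12.3 to 17.7 times per kilobase in Tie1-WT libraries and by 13.9 to 17.2 times in Tie1-CR libraries. Map2k3 exceeded Map2k6 by 7.77 to 9.20 times and by 8.02 to 13.0 times. The length used matters for such ratios. With the longest transcript in place of all exons, Mapk9 exceeded Mapk8 by 8.97 to 12.9 times in Tie1-WT and 10.1 to 12.5 times in Tie1-CR. The ratio of Mapk14 to Mapk12 was 1.73 to 2.04 in Tie1-WT and 1.45 to 1.88 in Tie1-CR over all exons. With the longest transcript it was 1.07 to 1.26 in Tie1-WT and 0.892 to 1.16 in Tie1-CR, so there the order turned in at least 1 Tie1-CR library.

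GC content moved with the differences. Across all 9031 annotated genes the difference correlated with the GC content of the longest transcript (Spearman rho 0.42), and across the 39 members rho was 0.66. These points share the same 9 libraries, genes are not independent replicates, and the values are given as a description. The 4 members that were higher at an unadjusted p below 0.05 held 56.0% to 61.3% GC, with a median of 56.7%. The 8 lower ones held 39.4% to 56.0%, with a median of 45.6%. Map4k4 (52.4%) and Map2k7 (56.0%) were the 2 lower members with the most GC.

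After removing trends with GC content and length, 1 member rose and 2 fell, where 1.24% and 1.94% of genes were called. Mapk11 kept a difference of 0.36 log2 (limma adjusted p = 0.0448) and Map4k4 one of -0.27 (0.0259). Map2k7 was called at -0.28 (0.037). Mapk8 moved from -0.27 to -0.17, Mapk9 from -0.14 to -0.08 and Map4k5 from -0.13 to -0.06 log2. Mapk7 moved from 0.24 to 0.18 and Map3k11 from 0.16 to 0.08 log2. This correction was chosen after seeing the data.

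**Figure D5:**
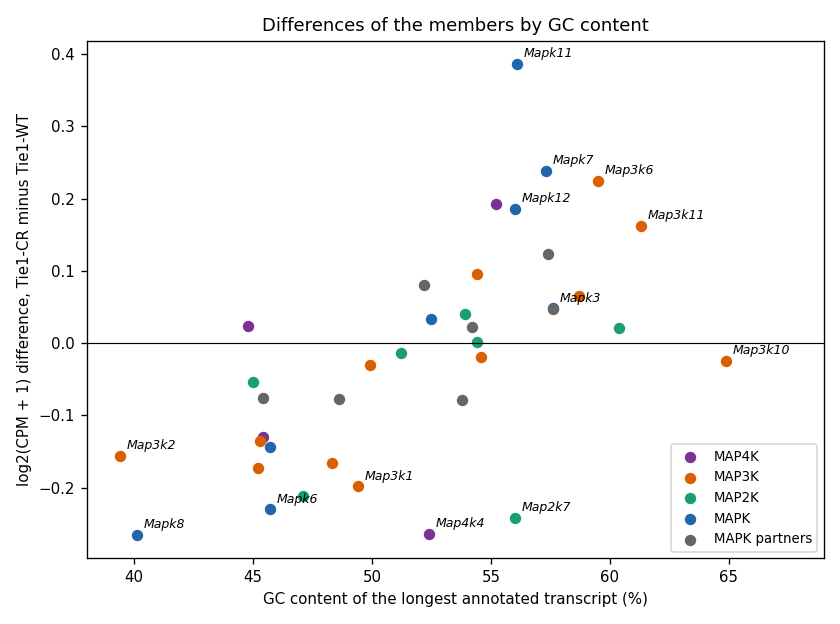
Difference in log2(CPM + 1) between Tie1-CR and Tie1-WT against the GC content of the longest annotated transcript, for 38 of the 39 members coloured by tier. Members with less GC stood lower (Spearman rho 0.66 over all 39), and Map4k4 and Map2k7 lay below others of like GC content.

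Some members share their locus with other genes. Map3k11 overlaps Pcnx3, Map3k12 overlaps Pcbp2, Mapk1ip1 overlaps Ppp2r2d and Mapk8ip3 overlaps Mrps34, each on the opposite strand. Reads of these pairs could be split wrongly, since a strand-aware count is not stated. Mapk8ip3 also overlaps Eme2 on the same strand, where a strand-aware count would not separate shared reads. Annotated processed pseudogenes lie on the same strand within Mapk6, Mapk8 and Mapkap1. Map2k7 shares its strand and locus with Gm49320, a gene model not analysed here. GENCODE annotates no gene that overlaps Mapk11, Mapk12 or Map4k4. Map3k7 and Map3k6 lie on chromosome 4, as Tie1 does, from 31964097 and from 133240818, and neither was called.

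The rest of the pathway was covered by 6 further lists, which were chosen with earlier results of these data known. Of 26 inputs from receptors and Ras, 1 fell and 0 rose (median -0.05 log2), a share of 3.85% against 4.05% of all genes. The gene that fell was Ptpn11, which encodes the phosphatase SHP2 that passes receptor signals to Ras, with 55.2 ± 3.82 CPM in Tie1-WT (SD, n = 4) and 43.4 ± 3.44 CPM in Tie1-CR (SD, n = 5) (limma adjusted p = 0.0225). The call of Ptpn11 held without 6 of the 9 libraries in turn. Of 10 measured kinases of the MAP3K and MAP4K tiers under other names, such as the RAF and TAO kinases, 0 were called, with 1 lower and 0 higher at an unadjusted p below 0.05. Of 13 scaffolds and binding regulators 0 were called, with 1 higher (7.69%, against 8.27% of all genes) and 0 lower at an unadjusted p below 0.05. Of 7 measured kinases that MAP kinases activate 0 were called. At an unadjusted p below 0.05, 1 was higher (14.3%, against 8.27% of all genes) and 2 were lower (28.6%, against 14.0%). The genotypes did not overlap for 42.9% of these 7 genes, against 10.5% of all genes, and the lowest difference was -0.35 log2.

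Of 17 transcription factors that MAP kinases phosphorylate, 1 fell and 0 rose (median -0.11 log2), a share of 5.88%, against 4.05% of all genes. At an unadjusted p below 0.05, 6 were lower (35.3%, against 14.0% of all genes) and 0 higher, and 15 of the 17 had differences below 0. The gene that fell was Max, the partner of Myc, at 47.9 ± 1.13 CPM (SD, n = 4) and 38.7 ± 4.63 CPM (SD, n = 5) (limma adjusted p = 0.0492). Its call held when 1 of the 9 libraries was left out, but not for the other 8. The call of Max ended after the correction for GC content and length (0.125), where 1 other gene of the list was called lower. Of 12 measured phosphatases and feedback inhibitors (19 listed), 2 fell and 0 rose (median -0.12 log2), a share of 16.7%, against 4.05% of all genes. Dusp5, a nuclear phosphatase of ERK, fell from 23.7 ± 5.78 to 7.67 ± 1.32 CPM (limma adjusted p = 0.00141). Every gene of the table reaches at least 10.01 CPM in some library. The Dusp5 mean lay below that in Tie1-CR, so its presence among the measured genes leaned on the Tie1-WT libraries. The fall of Dusp5 and the share of 16.7% are therefore partly set by this limit. Dusp4, which also acts on JNK and p38, fell from 15.3 ± 1.19 to 11.7 ± 1.17 CPM (limma adjusted p = 0.0415), a call that also held for 1 of the 9 libraries left out.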

How the data were processed

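RNA of mouse lung endothelial cells was sequenced in 9 libraries. A PicoPure kit was used for the RNA and a SMARTer Ultra Low kit for the libraries, per the labels' protocols. The submitters' processing notes name STAR 2.7, GRCm38.p6 and mm10. The sources used here do not give the counting tool or the filter on genes. The authors deposited 1 table named as TPM whose values are CPM: in each library 100% of them are multiples of the value of 1 read, within 0.01 reads. Of the counted reads 98.3% to 98.6% fall in the table, which holds genes reaching at least 10.01 CPM in some library. At 10 CPM the counting error alone was 4.29% to 5.12%.

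The design assumed TPM, and its log-scale test was kept. Values were used as log2(CPM + 1), with at least 1 CPM in at least 4 libraries, a filter that removed no gene. Genes were tested with limma 3.58.1 in R 4.3.3 (trended empirical Bayes, two-sided, Benjamini-Hochberg). The members and lists were chosen with earlier results of these data known. Members described in every library were those called, those without overlap, the 2 with the largest difference per tier and the highest per kilobase. Arms were assigned from textbook knowledge after the values were seen. GENCODE M21 (GRCm38) matched 9031 genes (97.3%) and all 39 members. The values of 1 member are not reported here, but it is counted among the 39. The GC and length correction removed natural splines with 4 degrees of freedom. Both fits were tested on simulated data. The main fit recovered 79% of genes changed by 0.5 log2 and 95% of those changed by 1 log2, with 7 false calls. The fit after the correction was tested at 1 log2 alone (99% recovered, 7 false calls). Differences as small as those of the members were not simulated. No 2 libraries agreed within counting error (lowest chi-square per degree of freedom 21.4). Tables and plots came from Python 3.11.15 and matplotlib 3.10.9. Alternatives were other pseudocounts, filters, scalings, variance models and thresholds, a replicate block, and each library left out.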

Additional observations from a re-analysis of the deposited data

Results flagged for a closer look

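Within each genotype, the highest and lowest library of every member and of Tie1 were compared with the others by Dixon's ratio at its 95% critical value, over 80 sets of libraries. About 1 in 20 such sets is marked by chance, and 4 were marked. Map3k14, the NIK gene, stood apart in both genotypes, at 24.8 CPM in Tie1-WT replicate 3 (others 16.3 to 17.1) and at 22.4 CPM in Tie1-CR replicate 2 (others 18.2 to 19.2). Mapk1ip1 was at 20.1 CPM in Tie1-CR replicate 1 (others 17.8 to 18.4). Tie1 was at 2680 CPM in Tie1-CR replicate 4 (others 2330 to 2420).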

How the results depend on the processing

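Of the 39 members 1 was called higher and 1 lower, and these counts depended on the settings. With each library left out the number called higher was 0 to 1 and lower 0 to 1. Without Tie1-CR replicate 2 the lower call was Map2k7 and not Map4k4. With TMM scaling 0 members were lower, and after the GC and length correction 2 were. At an adjusted p below 0.10 there were 2 higher and 2 lower, adding Mapk7 and Map2k7. Over all genes, 119 were higher and 257 lower. TMM scaling gave 182 higher and quantile normalization 183. A threshold of 0.10 gave 314 higher and 592 lower. Leaving out each library gave 6 to 110 higher and 54 to 245 lower. The cause of these shifts was not tested. The Tie1 difference stayed between 0.15 and 0.20 log2 with each library left out.

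With a replicate block (replicates 1 to 4 of both genotypes) 37 genes were higher and 145 lower, and 0 members were called higher and 0 lower. Mapk11 was then at 0.37 log2 and Map4k4 at -0.27 (limma adjusted p = 0.11 and 0.096). Same-numbered libraries share only a number: their deviations correlated at -0.14, 0.00, -0.06 and 0.19, and 1 of 4 Tie1-WT libraries correlated best with its own number.

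Map2k3, at 0.00 log2, changed sign to -0.03 with the replicate block, to -0.003 after the GC and length correction, and ranged from -0.030 to 0.033 with each library left out (-0.026 without Tie1-WT replicate 1, -0.018 without 4, -0.020 without Tie1-CR replicate 1, -0.030 without 5). Map4k3, at 0.02 log2, ranged from -0.013 (without Tie1-CR replicate 3) to 0.046. The planned tests on whole reads were not run. Of the 17 members named by the rule, the other 15 kept their direction in all 20 alternatives. Several of these could not change it: other filters, the robust variance model and the threshold leave a difference as it is. The replicate block gave the same differences as leaving out Tie1-CR replicate 5. The rule also picked members partly by the size of their difference. Outside the 17, members such as Map3k3, Map3k5 and Map3k10 changed sign under a scaling. Mapk12, which the rule does not name, was run only under the scalings and the GC and length correction, and stayed above 0 (0.17 to 0.21 log2).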
